A study of Homo sapiens with 2 samples.

Results

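The genes described here encode lysosomal hydrolases, the proteins that help or carry them, proteins of the lysosomal membrane, and the transcription factors TFEB and TFE3. They are 37 named genes, chosen by name with earlier results of these data known. Each was matched to the array through the RefSeq transcript of its probes. Of the 50599 probes that are not controls, 49 belong to them. Counts and medians of the members below therefore describe the list and are no independent support. HepG2 is an established human hepatoma cell line with many traits of liver cells. One culture received dimethyl sulfoxide (DMSO, 1‰), the vehicle, and the other hawk tea extract (HTE), an ethanol extract of hawk tea leaves, both for 24 h in high-glucose medium with fetal bovine serum. The treatment protocol in the labels gives a dose of 200 μg/mL HTE, but the HTE array is marked 300 in the deposit, so the dose is not settled. The study's text gives the higher of these doses. RNA of each culture was labelled with Cy3 and hybridised to 1 Agilent array, and both arrays were on the same slide. With 1 array per condition the ratios below have no replicate check and no p value, and array and treatment cannot be told apart.

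Lysosomes are acidic organelles in which macromolecules taken up by endocytosis or delivered by autophagy are broken down. In hepatocytes, cholesterol that enters with lipoproteins passes through them, where it is released from its esters by acid lipase and handed on by NPC2 and NPC1. Hydrolases work inside at low pH, membrane glycoproteins line the organelle, and the proton pump (V-ATPase) keeps it acidic. TFEB and TFE3 are helix-loop-helix factors that, when mTORC1 is inactive, enter the nucleus and bind CLEAR elements, E-box sequences found in front of many lysosomal genes.

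The promoters of the members were searched for these elements, because TFEB and TFE3 are members themselves. Sequences from 250 bases before to 50 bases after the start of each gene (RefSeq, GRCh38.p14) were matched by symbol for 27 of the 37 members. The E-box CACGTG was in the promoter of 9 members (33.3%), against 8.77% of all 27305 genes with such a sequence and 12.3% of the 11395 of them measured on both arrays. TCACGTGA, the core of the CLEAR element, was in 6 (22.2%), against 1.18% of all genes and 2.13% of the measured ones. That core with a G before it and a C after it was in 3 (11.1%), against 0.42% of all genes and 0.83% of the measured ones. Each of the 3 motifs reads the same on both strands, and each longer motif holds the shorter ones. Because CLEAR elements are known from the front of many lysosomal genes, the higher shares among the members describe the list and are no separate result. The 9 windows of 30 bases below were picked for holding the core, which is in capitals.
CLN3 (chr16:28492058-28492087, - strand): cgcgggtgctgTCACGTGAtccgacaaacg
CTSA (chr20:45891298-45891327, + strand): ggcgccggagtTCACGTGActcgtacacat
GAA, first (chr17:80101493-80101522, + strand): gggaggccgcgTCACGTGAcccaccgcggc
GAA, second (chr17:80101538-80101567, + strand): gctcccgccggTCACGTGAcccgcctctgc
GALNS (chr16:88857104-88857133, - strand): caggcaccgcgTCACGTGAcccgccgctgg
LAMP1, first (chr13:113297199-113297228, + strand): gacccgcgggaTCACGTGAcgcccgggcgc
LAMP1, second (chr13:113297226-113297255, + strand): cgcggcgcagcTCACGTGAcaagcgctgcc
MCOLN1, first (chr19:7522571-7522600, + strand): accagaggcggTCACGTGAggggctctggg
MCOLN1, second (chr19:7522598-7522627, + strand): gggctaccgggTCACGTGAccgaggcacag
GAA, LAMP1 and MCOLN1 hold the core at a pair of places each. The sequences describe the promoters and say nothing of which factor was bound in these cells.

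A level is given here as the log2 processed signal of a gene's brightest probe minus the 75th percentile of its array (signals of 4020 on the DMSO array and 3570 on the HTE array). The log2 ratio is the level on the HTE array minus that on the DMSO array. No spot was saturated, and 60.6% of the spots on the DMSO array and 56.6% on the HTE array were well above background. Of the 37 members, 36 were well above background on both arrays. CTSS, a cysteine cathepsin of antigen-presenting cells, did not reach that mark on the DMSO (-8.16) or the HTE array (-7.48), and it has no ratio. The only error known here is technical, with a median SD of the log2 ratio of 0.05 over replicate spots (689 probes with at least 5) and 0.16 over the probes of a gene (3759 named genes with several). How much cultures vary is not known.

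Most of the lysosomal genes were higher on the HTE array, each by less than 2-fold. Of the 36 measured members, 29 had a log2 ratio above 0, against 51.3% of the 14636 named genes measured on both arrays (well above background on each). The median log2 ratio of the members was 0.43, with an interquartile range from 0.14 to 0.60 and a full range from -0.39 for CTSC to 0.97 for PSAP, whereas the median of those named genes was 0.01. At least 1.5-fold higher were 10 of the 36 members, against 12.4% of all 23752 genes and unnamed transcripts and 11.9% of the named genes. No member was at least 1.5-fold lower (background of 10.5% and 9.26%), and none was past the 2-fold cutoff of the study's methods in either direction (background of 5.25% and 4.26% for higher, 3.03% and 2.72% for lower). Among the 4646 named genes whose mean level lay within the interquartile range of the members' mean levels, the median was -0.04 and 45.3% were above 0. Beyond the SD of 0.16 among probes of a gene there were 27 members, 25 of them higher and 2 lower. Among probes of the 10 members with more than 1, the median SD was larger, 0.33, and the widest range was 0.88. Beyond that SD there were 24 members, 22 of them higher and 2 lower. The share of all named genes beyond either SD was not counted. Their interquartile range ran from -0.26 to 0.30, with both ends beyond 0.16. These counts alone therefore do not set the members apart.

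The direction rests on how the arrays are scaled. Without scaling, where the median of all genes lay at -0.16, 25 members were above 0 and their median was 0.25. The E1A spike-in RNA was brighter on the HTE array by 0.44 to 1.56 on the log2 scale over the 8 spike-in probes well above background, and scaling to it put all genes at a median of -1.36 and all 36 members below 0, at a median of -0.94. Under each scaling that subtracts 1 number from each array the members lay above the median of all genes by about the same amount, 0.42. This was 0.43 with the 75th percentile, where the median of all genes lay at 0. The bound of a dim gene is set to 0 where it would cross it. Whether the RNA content per cell differed between the cultures cannot be told from these arrays, nor can RNA per cell be told apart from the share of cells that express a gene.

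**Figure D1:**
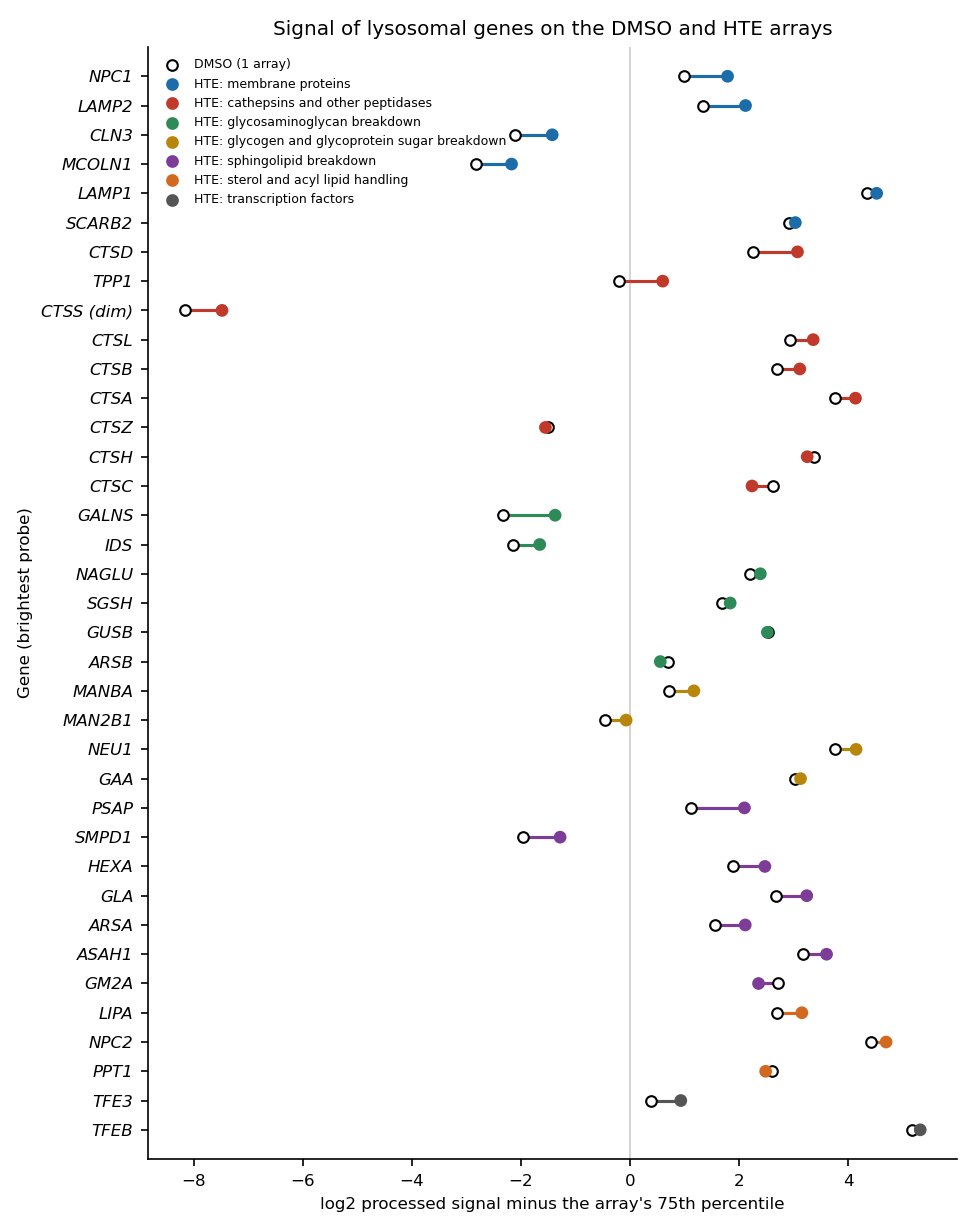
Log2 processed signal minus the 75th percentile of the array (x axis) for each of the 37 lysosomal genes (y axis), on the DMSO array (open circles) and the HTE array (filled circles, coloured by role), 1 array each with no error bars. The filled circle lies to the right of the open one in 29 of the 36 measured genes (in none with spike-in scaling), and CTSS, marked dim, was not well above background.

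Membrane proteins of the lysosome were all higher on the HTE array, except with spike-in scaling, and SCARB2 except without scaling too. The 6 genes had a median log2 ratio of 0.67. All 6 were above 0, against 51.3% of the named genes, and 4 were at least 1.5-fold higher, against 11.9%. The median of the 6 was 0.45 with the second brightest probe and 0.52 with the mean over all probes. LAMP2 then had ratios of 0.25 and 0.38 and was no longer past 1.5-fold. NPC1, the membrane protein that moves cholesterol out of the lysosome, was read by 10 spots on each array. Its spots ran from 0.87 through a median of 1.00 to 1.09 on the DMSO array. On the HTE array they ran from 1.69 through 1.79 to 1.92, with no overlap between the arrays. How many other probes with replicate spots also lack overlap was not counted, so this does not set NPC1 apart. The log2 ratio was 0.80 ± 0.04 (SD over 10 spots of 1 array pair, a technical error), and the 10 spots gave ratios from 0.75 to 0.88.

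LAMP2, a major glycoprotein of the membrane, had a level of 1.34 for DMSO and 2.12 for HTE at its brightest probe, a log2 ratio of 0.77. That probe is designed to the transcript of isoform C. The probe for isoform B went from 1.14 to 1.39 (0.25), and the probe for isoform A, the receptor of chaperone-mediated autophagy, from -0.16 to -0.06 (0.10). All 3 LAMP2 probes were higher on the HTE array. The ratio at the isoform C probe exceeded the others by more than the SD of 0.16 among probes of a gene. The ratios at the probes for isoforms B and A differed from each other by less than that. Whether a probe also reads the other isoforms was not tested, as no probe sequences were used.

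LAMP1, the other major membrane glycoprotein, had levels of 4.34 and 4.52, a log2 ratio of 0.18. SCARB2, which carries glucocerebrosidase to the lysosome, had levels of 2.92 and 3.03, a ratio of 0.11. At the brightest probes these were the smallest ratios of the membrane proteins. MCOLN1, the calcium channel TRPML1, was dimmer, with levels of -2.83 and -2.17, and its ratio was 0.65. CLN3, a membrane protein lost in a juvenile neuronal storage disease, had levels of -2.11 and -1.43 and a ratio of 0.68. Both dim genes were at least 1.5-fold higher.

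The cathepsins and other peptidases did not move as 1 group. Of the 8 measured genes, 5 (62.5%) were above 0, against 51.3% of the named genes, and 3 below. The median log2 ratio was 0.40. CTSD, the main aspartic protease of the lysosome, had levels of 2.25 and 3.07, a ratio of 0.82 or 1.77-fold. TPP1, which removes tripeptides from the N-terminus of proteins, had levels of -0.20 and 0.60 at its brightest probe, a ratio of 0.80, and a second probe gave 0.38. CTSD and TPP1 were the members of this group past 1.5-fold, against 11.9% of the named genes.

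The cysteine endopeptidases CTSL (2.93 and 3.36) and CTSB (2.69 and 3.11) had log2 ratios of 0.43 and 0.42. CTSA, a carboxypeptidase that also protects NEU1, had levels of 3.75 and 4.13 and a ratio of 0.38, with 0.62 at its second probe. The other cathepsins lay below 0. CTSC, the dipeptidyl peptidase that activates serine proteases, was lower at all 3 of its probes, which are annotated to 3 different transcripts. Its brightest probe went from 2.63 to 2.24 (-0.39), the next from 1.39 to 1.19 (-0.21), and the dimmest from -0.77 to -1.76 (-0.997). CTSH, an aminopeptidase, had levels of 3.38 and 3.25 and a ratio of -0.13, and CTSZ, a carboxypeptidase, had levels of -1.51 and -1.55 and a ratio of -0.04, both within the SD of 0.16 among probes of a gene.

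Sphingolipid breakdown was the hydrolase group with the largest median, 0.57 over 7 genes. Of these, 6 were above 0 (none with spike-in scaling), against 51.3% of the named genes. At least 1.5-fold higher were 3, against 11.9% of the named genes. PSAP encodes prosaposin, the precursor of the saposins that present sphingolipids to their enzymes. Its brightest probe had levels of 1.12 for DMSO and 2.10 for HTE, a log2 ratio of 0.97 or 1.97-fold, and its second probe went from -0.75 to 0.24 (0.99). No other member had a larger ratio at its brightest probe, and the SD between its probes was 0.01. SMPD1, acid sphingomyelinase, had levels of -1.97 and -1.28 and a ratio of 0.69. HEXA, a subunit of the hexosaminidase that degrades GM2 ganglioside, had levels of 1.89 and 2.47 and a ratio of 0.59. At 1.501-fold HEXA was barely past the 1.5-fold cutoff. It was not past it with normexp correction (0.54) or with scaling to the median (0.51).

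GLA, alpha-galactosidase A, had levels of 2.67 and 3.24 (0.57), and ARSA, which removes sulfate from sulfatide, had levels of 1.56 and 2.11 (0.56). ASAH1, acid ceramidase, had levels of 3.17 and 3.60 (0.44). GM2A stood apart. It encodes the activator that lifts GM2 ganglioside out of the membrane for hexosaminidase, and it was lower at both probes, from 2.71 to 2.36 (-0.36) and from 0.09 to -0.61 (-0.70). HEXA and its activator GM2A thus had ratios of opposite sign.

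**Figure D2:**
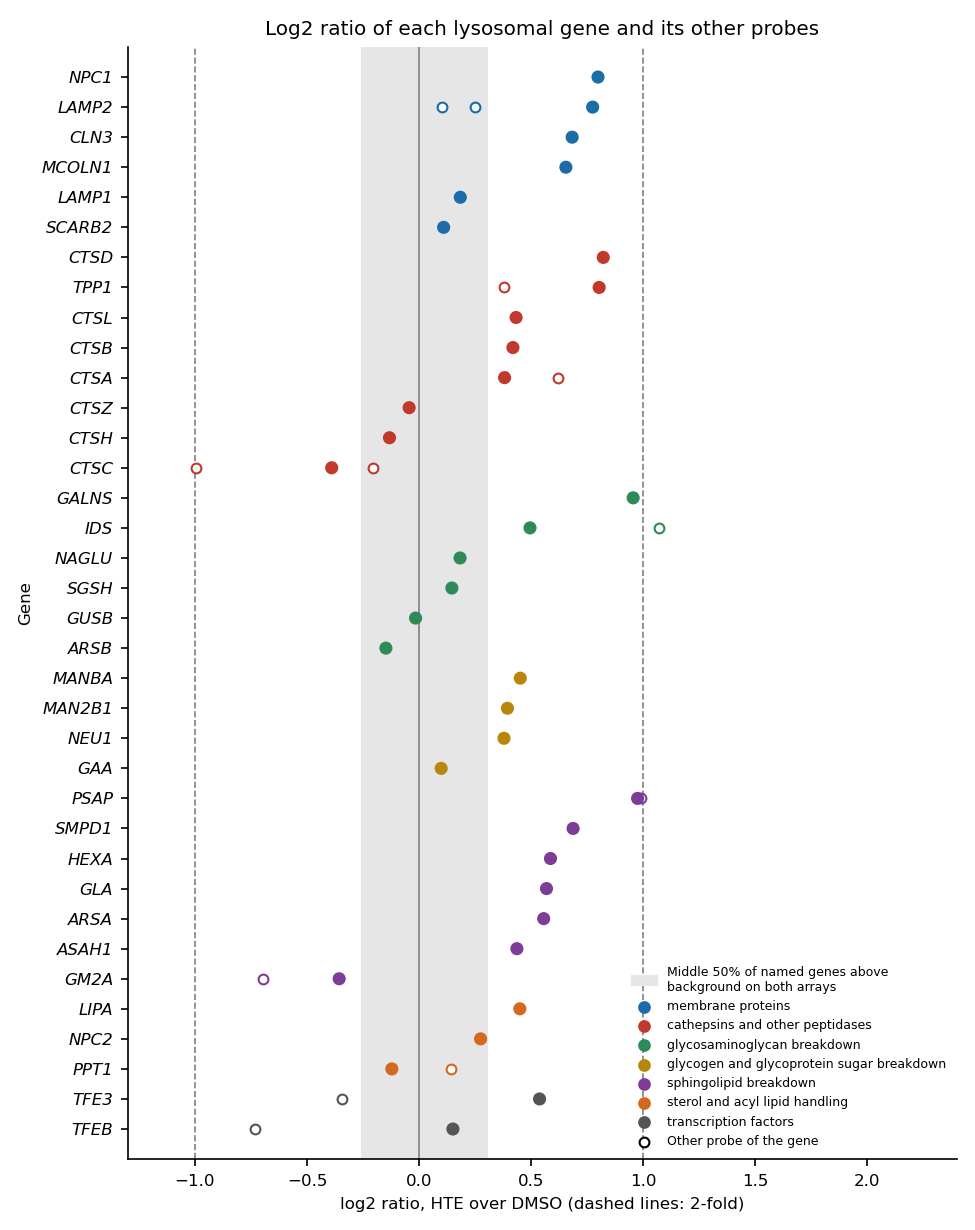
Log2 ratio of HTE over DMSO (x axis) of the 36 measured lysosomal genes (y axis, grouped and coloured by role) at the brightest probe (filled) and at other probes of the same gene (open), with 1 array per condition and no error bars. The grey band holds the middle 50% of the 14636 named genes, dashed lines mark 2-fold, and most filled points lie to the right of 0 (all to the left of it with spike-in scaling) and none beyond 2-fold.

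Enzymes of glycosaminoglycan breakdown had a median of 0.16 over 6 genes, which was -0.01 without scaling and -1.20 with spike-in scaling. GALNS, a sulfatase of keratan sulfate and chondroitin sulfate, was an exception, with levels of -2.33 and -1.37, a log2 ratio of 0.96 or 1.94-fold. IDS, the sulfatase that acts on iduronate in heparan and dermatan sulfate, had levels of -2.15 and -1.65 (0.49), and its dimmer probe went from -4.15 to -3.08 (1.07), the only probe of any member past 2-fold. The heparan sulfate enzymes NAGLU (2.21 and 2.39) and SGSH (1.69 and 1.84) had ratios of 0.18 and 0.15. ARSB, the sulfatase of dermatan sulfate, had levels of 0.70 and 0.56, a ratio of -0.15.

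GUSB, beta-glucuronidase, is the other member with replicate spots, of which 9 could be used on the DMSO array and 10 on the HTE array. They ran from 2.48 through a median of 2.53 to 2.61 for DMSO and from 2.47 through 2.53 to 2.57 for HTE, so that they overlapped throughout. The log2 ratio was -0.02, with an SD of 0.05 over 9 spot pairs. Read on the same pair of arrays with the same scaling, NPC1 had a ratio of 0.80 and GUSB of -0.02. The SD among spots covers only repeat reads of the same probe and is no measure for a difference between genes. Among probes of a gene the median SD was larger, 0.16 over the named genes and 0.33 over the members with several probes. How much cultures vary is not known.

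**Figure D3:**
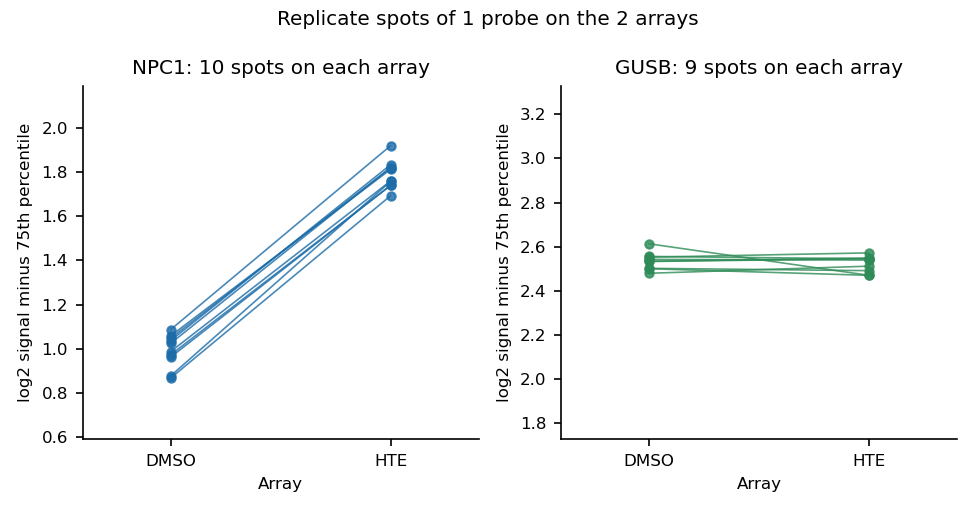
Log2 signal minus the 75th percentile (y axis) of each replicate spot of the NPC1 probe (left, 10 spots) and the GUSB probe (right, 9 spots) on the DMSO and HTE arrays (x axis), with lines joining the same spot position on both arrays. All NPC1 spots are higher on the HTE array, with ratios from 0.75 to 0.88, and the GUSB spots overlap, and both sets shift down together with spike-in scaling.

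Enzymes for glycogen and the sugars of glycoproteins were higher in 4 of 4 genes (GAA not without scaling, and none with spike-in scaling). The share above 0 was 51.3% among the named genes. The median log2 ratio of these enzymes was 0.39, with none past 1.5-fold (background of 11.9%). MANBA, beta-mannosidase, had levels of 0.72 and 1.17 (0.45). MAN2B1, alpha-mannosidase, had levels of -0.47 and -0.07 (0.39), and NEU1, the lysosomal sialidase, had levels of 3.77 and 4.15 (0.38). GAA, which degrades glycogen, had levels of 3.03 and 3.13, and its ratio of 0.10 lay within the SD among probes of a gene.

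Of the members that handle sterols and acyl lipids, LIPA, the acid lipase that frees cholesterol from its esters, had levels of 2.70 and 3.15 (0.45). NPC2, the soluble protein that passes cholesterol to NPC1, had levels of 4.42 and 4.70 (0.27). With spike-in scaling LIPA was at -0.92 and NPC2 at -1.09. PPT1, which removes palmitate from proteins, had a ratio of -0.12 at its brightest probe (2.61 and 2.49) and 0.14 at the other (-0.02 and 0.12), so its direction depended on the probe.

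The transcription factors gave no settled direction. TFEB had levels of 5.17 and 5.32 at its brightest probe (0.15) and 1.26 and 0.53 at the other (-0.73). The brightest TFEB probe had the highest level of all members, close to that of ALB (5.21 and 5.40). Whether that probe reads TFEB alone was not tested, and it is the one that counts TFEB among the members above 0. TFE3 had levels of 0.39 and 0.93 at its brightest probe (0.54) and 0.36 and 0.01 at the other (-0.34). Both genes thus had probes of opposite sign although both probes of each gene are annotated to the same transcript. Of the 10 members with more than 1 probe, 7 kept their sign at all their probes, and the 3 that did not were TFEB, TFE3 and PPT1.

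The 6 members with TCACGTGA in their promoter had ratios from 0.10 (GAA) to 0.96 (GALNS), with a median of 0.52. The 21 members with a promoter sequence but without this motif had a median of 0.38 and ranged from -0.39 to 0.82. These ranges overlapped over most of their length. Over all named genes measured on both arrays and matched to a promoter, those with the motif (243) had a median of 0.06 and those without it (11152) of 0.01.

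Other genes of the lysosome, 110 in 5 lists also chosen with earlier results known, were read the same way. Of the 105 measured, 79 were above 0 (51.3% of the named genes), with a median log2 ratio of 0.18 (0.01 without scaling and -1.19 with spike-in scaling). At least 1.5-fold higher were 18, against 11.9% of the named genes measured on both arrays. None was at least 1.5-fold lower (background of 9.26%), and 3 were at least 2-fold higher (background of 4.26%). The subunits of the V-ATPase, the proton pump, had a median of 0.35, and 13 of 15 were above 0, from ATP6V1F (-0.19) to ATP6V0A1 (0.60). Of 26 further hydrolases and activators, 22 were above 0 with a median of 0.30, the largest ratio being that of DNASE2, an acid nuclease (levels of -1.33 and -0.21, ratio of 1.12), and the lowest that of CTSV (-0.20). Of 20 further membrane proteins and transporters, 16 were above 0 with a median of 0.21, from SIDT2 (-0.13) to GPR137B (levels of -3.95 and -2.48, ratio of 1.47). These counts are lower with spike-in scaling, which put the 3 medians between -1.16 and -1.02.

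By their medians, the lists for the delivery of enzymes and for signalling at the lysosome lay nearer to the other genes. The 21 genes of lysosomal enzyme sorting had a median of 0.04, with 13 above 0 and none past 1.5-fold, from GNPTAB (levels of 1.39 and 0.92, ratio of -0.47) to GNPTG (0.44), which encode subunits of the enzyme that builds the mannose 6-phosphate tag. The 23 genes of MiT/TFE regulation and mTORC1 at the lysosome had a median of 0.12 (-0.05 without scaling). It was 0.18 over the genes well above background on both arrays. Of the 23, 15 were above 0 and 5 at least 1.5-fold higher, against 51.3% and 11.9% of the named genes. FLCN, which acts with the Rag GTPases in the control of TFEB and TFE3, was the largest of them (levels of -1.45 and -0.36, ratio of 1.08), and ZKSCAN3 was the lowest of those measured on both arrays (-0.20). The others past 1.5-fold, named after their values were seen, were RRAGD (0.87), RRAGC (0.82), TSC1 (0.65) and DEPDC5 (0.62). The other Rag genes, RRAGA (0.24) and RRAGB (0.54), were not past it.

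**Figure D4:**
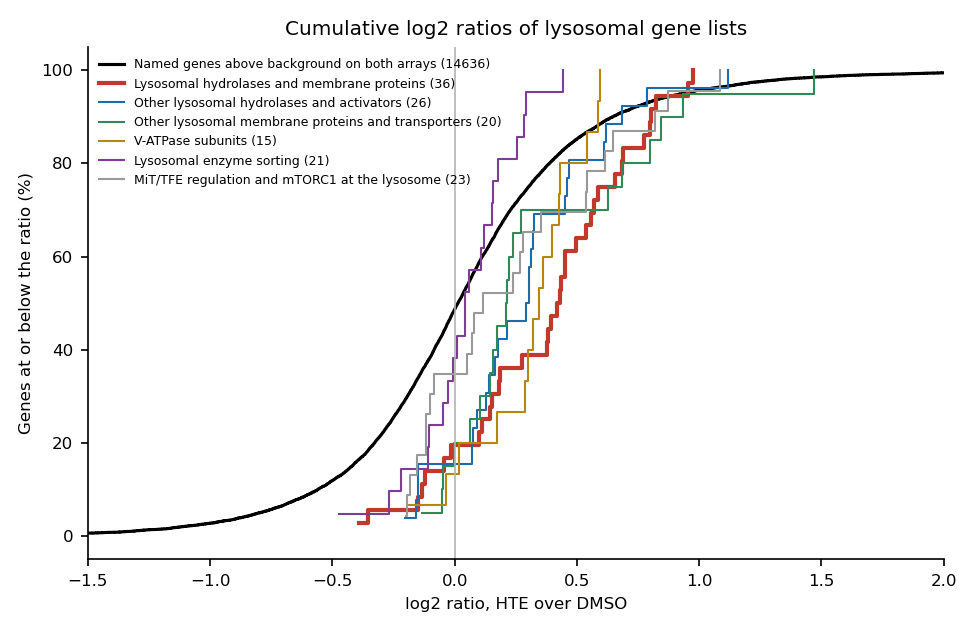
Share of genes (y axis, percent) at or below each log2 ratio of HTE over DMSO (x axis) for the lysosomal hydrolases and membrane proteins (red, 36 genes), 5 further lysosomal lists (thin lines, with TFEC as a bound) and the 14636 named genes measured on both arrays (black). The red line lies to the right of the black one up to a ratio of 0.80, with medians of 0.43 and 0.01, and every line moves left by the same amount with spike-in scaling.

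All 12 hepatocyte markers, among them ALB and APOA1, were well above background on both arrays, with ratios from -1.11 (FGA) to 0.32 (AHSG) and a median of 0.11. Of 10 macrophage markers with a probe, the DMSO array showed 5 and the HTE array 4 well above background. CD163, CSF1R, ITGAM, MRC1 and SPI1 were not on either. The 5 measured ones had ratios of 0.57 for FCER1G, 0.46 for CD68, itself a protein of lysosomal membranes, 0.14 for PTPRC, -0.18 for TYROBP (a bound) and -1.77 for CD14, with a median of 0.14. Of 10 fibroblast markers, the DMSO array showed 4 and the HTE array 3. No marker list other than that of hepatocytes was detected as a whole on either array, and the part of other cells in the ratios was not tested.

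**Figure D5:**
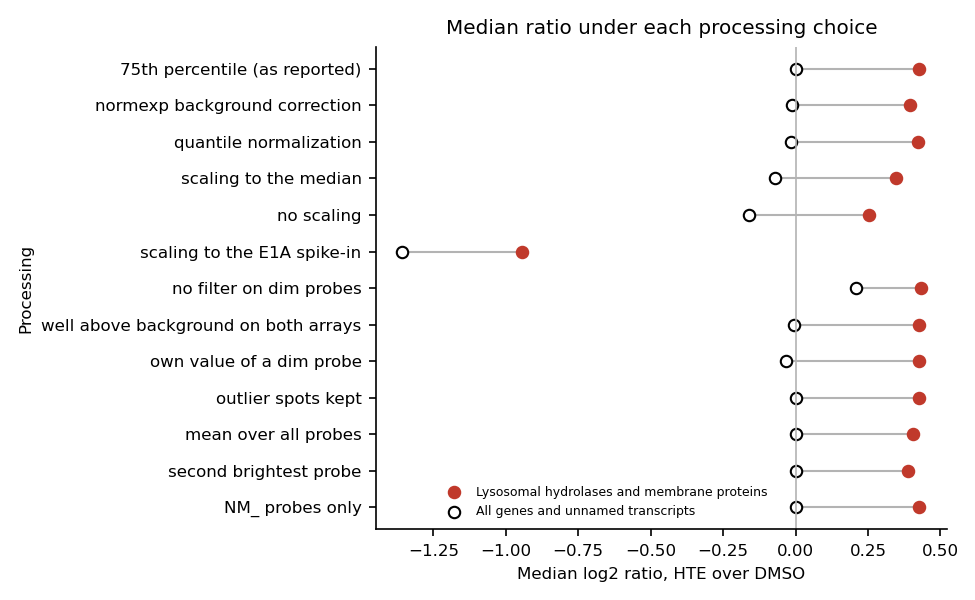
Median log2 ratio of HTE over DMSO (x axis) of the lysosomal hydrolases and membrane proteins (red) and of all genes and unnamed transcripts (open), under the processing of this report and 12 alternatives (y axis). The red points lie between 0.25 and 0.43 except with spike-in scaling (-0.94), and to the right of the open point in every row.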

How the data were processed

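Total RNA of 1 DMSO-treated and 1 HTE-treated HepG2 culture was profiled on 1-colour (Cy3) arrays. The authors deposited Agilent Feature Extraction output (version 11.5.1.1 per the file headers, 10.7 per the labels), in which the processed signal is an intensity already background-subtracted and detrended, not scaled between arrays. Signals near background are not reliable as levels, so dim values were used only as bounds. The study's methods give a 2-fold cutoff and name no scaling.

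Here control spots and outlier spots (440 and 459) were left out, log2 signals were scaled to the 75th percentile of each array, replicate spots were averaged, and a probe was kept when either array had at least 0.5 of its spots well above background. A dim value on 1 array gave a bound. Probes were named by RefSeq accession without version (GRCh38.p14 gene table, 28174 of 50599 probes), and the only coordinates given are those of the RefSeq promoter sequences on that build, since the file header names hg19. The brightest probe stands for a gene. Every member and the largest and smallest ratio of each further list are named. The members and lists were chosen with earlier results of these data known. With 1 array per condition there is no test, and the number of arrays limits the precision. Alternatives covered background, scaling, filters, outliers and probe choice. The planned normexp correction (limma 3.58.1, R 4.3.3, offset 50) was run on median spot signals with the local background median, since mean signals were not used here. The steps were tested on simulated data. Python 3.11.15, numpy 2.4.6 and pandas 2.3.3 were used.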

Additional observations from a re-analysis of the deposited data

How the results depend on the processing

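No paired analysis was possible because each condition has 1 array, and leaving out an array leaves nothing to compare. The direction of the members' median held under 11 of 12 alternatives, and spike-in scaling reversed it. Scaling to the median left 8 members at least 1.5-fold higher and gave medians of 0.35 for the members and 0.10 for the further lysosomal lists. Without scaling these were 0.25 and 0.0068, with 6 members at least 1.5-fold higher, and the medians of glycosaminoglycan breakdown (-0.0067) and of MiT/TFE regulation (-0.054) fell below 0, as did SCARB2, SGSH, GAA and TFEB. Spike-in scaling gave -0.94 and -1.19, with 0 members above 0, 0 at least 1.5-fold higher, 31 at least 1.5-fold lower and 14 at least 2-fold lower. It put the medians at -0.70 for membrane proteins, -0.97 for cathepsins and other peptidases, -1.20 for glycosaminoglycan breakdown, -0.98 for glycogen and glycoprotein sugars, -0.80 for sphingolipid breakdown, -1.09 for sterol and acyl lipid handling, -1.02 for the transcription factors, -1.07 for other hydrolases, -1.16 for other membrane proteins, -1.02 for the V-ATPase and -1.25 for MiT/TFE regulation. This follows from subtracting 1 number from every gene, the median difference of the spike-in signals (1.20). The differences were 0.45 and 0.44 at the brightest spike-in probes and up to 1.56 at a dimmer one. No 1 number thus holds at all signal levels, and the cause of the differences was not tested. Quantile normalization put 1 member at least 2-fold higher. The second brightest probe put 1 member at least 2-fold higher (IDS) and 2 at least 1.5-fold lower (GM2A and TFEB), with -0.54 for the transcription factors, and the mean over all probes gave -0.096 for these. With outlier spots kept GUSB turned above 0. Without a filter on dim probes the median of all genes was 0.21, against 0.43 for the members. Normexp correction moved 9 of 36 members by over 0.05, the SD among spots, and changed no sign. Signal over background limits only CTSS among the members.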
